A study of Homo sapiens with 24 samples.

Results

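The androgen receptor is a transcription factor of the nuclear receptor family that androgen sends to the nucleus, and it acts on its target genes together with coregulator proteins. FOXA1 and HOXB13 are DNA-binding factors that sit with the receptor on prostate enhancers, FOXA1 as a pioneer factor that opens chromatin. NCOA1 and NCOA2 belong to the steroid receptor coactivator family, docking proteins that bring the acetyltransferases EP300 and CREBBP, which acetylate histones, to the hormone-bound receptor. NCOA3 is the other member of that coactivator family, and NCOR1 is a corepressor that carries histone deacetylases. These 8 genes were taken as listed, and a probe set was used for a gene where the array annotation named that gene alone. By this rule 6 of the 8 had at least 1 probe set, 14 probe sets in all, out of 11963 genes named on the array. NCOA3, NCOR1 and the receptor gene itself were not analysed here. For each of the 6 genes the brightest probe set, by its mean level, gave the main value, and all 6 passed the filter on low signal that left 6782 genes for testing.

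The levels come from LNCaP, a human prostate cancer cell line of luminal type that responds to androgen. By nucleofection, which is electroporation with a dedicated device, the cells received 2.5 µg of plasmid for 1 of the microRNAs miR-130a, miR-203 or miR-205, or a scramble control. The series was made to find the transcripts these microRNAs bind. Total RNA was measured on 3 arrays per transfection, and so was RNA bound to AGO2, the Argonaute protein that holds a microRNA with its target transcripts, after co-immunoprecipitation with an AGO2 antibody. The 8 groups therefore hold 3 arrays each, 24 in all, with 2 µg of RNA per array; the labels call them biological replicates of 1 cell line and name no separate cultures, so the p-values speak only of how far these arrays spread. All groups share the cell line and the nucleofection, and no group without a plasmid was used here.

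For the microRNAs themselves, the human reference of RefSeq (GRCh38.p14) gives the mature sequences below, shown because bases 2 to 8, in capitals, form the seed with which AGO2 finds its targets. The mature miR-205 lies at chr1:209432166-209432187 and the mature miR-203 at chr14:104117469-104117490, both on the plus strand, and their seeds differ. The third microRNA was miR-130a. No search for these seeds in the transcripts of the 6 genes was made.
hsa-miR-205-5p: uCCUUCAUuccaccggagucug
hsa-miR-203a-3p: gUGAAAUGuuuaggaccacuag

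Values are log2 levels per probe set, and a difference of 1 is a doubling. Each array received the same amount of RNA, so a difference is relative to the other transcripts on the array, and in bulk RNA fewer cells with a transcript and less of it per cell cannot be told apart. The lowest value on an array took 3 levels over the 24 arrays (2.34 to 2.35), 1 shared by all miR-130a arrays, 1 by all miR-203 arrays and 1 by all miR-205 and scramble arrays. The arrays thus appear to come from 3 normalization runs, and for miR-130a and miR-203 the run and the transfection cannot be told apart in a difference from scramble. A comparison of the 2 kinds of RNA from 1 transfection did not cross runs. The luminal markers KLK3 (mean 11.9), KRT18 (9.70), KLK2 (8.86) and ACP3 (8.21) were high, 7 of 9 luminal markers were measured and all 7 passed the filter. The luminal marker FOLH1 was low (mean 3.51), at 2.35 to 3.40 in AGO2-bound RNA, and 2 arrays lay within 0.05 of the floor. The basal keratin KRT5, the leukocyte markers PTPRC and CD14 and the stromal markers DCN and LUM lay within 0.05 of the floor on all 24 arrays, while ACTA2, a smooth muscle actin, reached 4.39 in total RNA and 6.53 in AGO2-bound RNA. The stromal collagen COL1A1 lay between 3.06 and 4.53, on 0 arrays within 0.05 of the floor. The gap between the 3′ and 5′ probe sets of ACTB, a measure of RNA integrity, averaged 2.07 to 2.24 in the 4 groups of total RNA. In AGO2-bound RNA it averaged 3.40 after scramble, 2.55 after miR-130a, 2.68 with miR-203 and 3.45 after miR-205. The part of RNA integrity in the differences below was not tested.

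**Figure D1:**
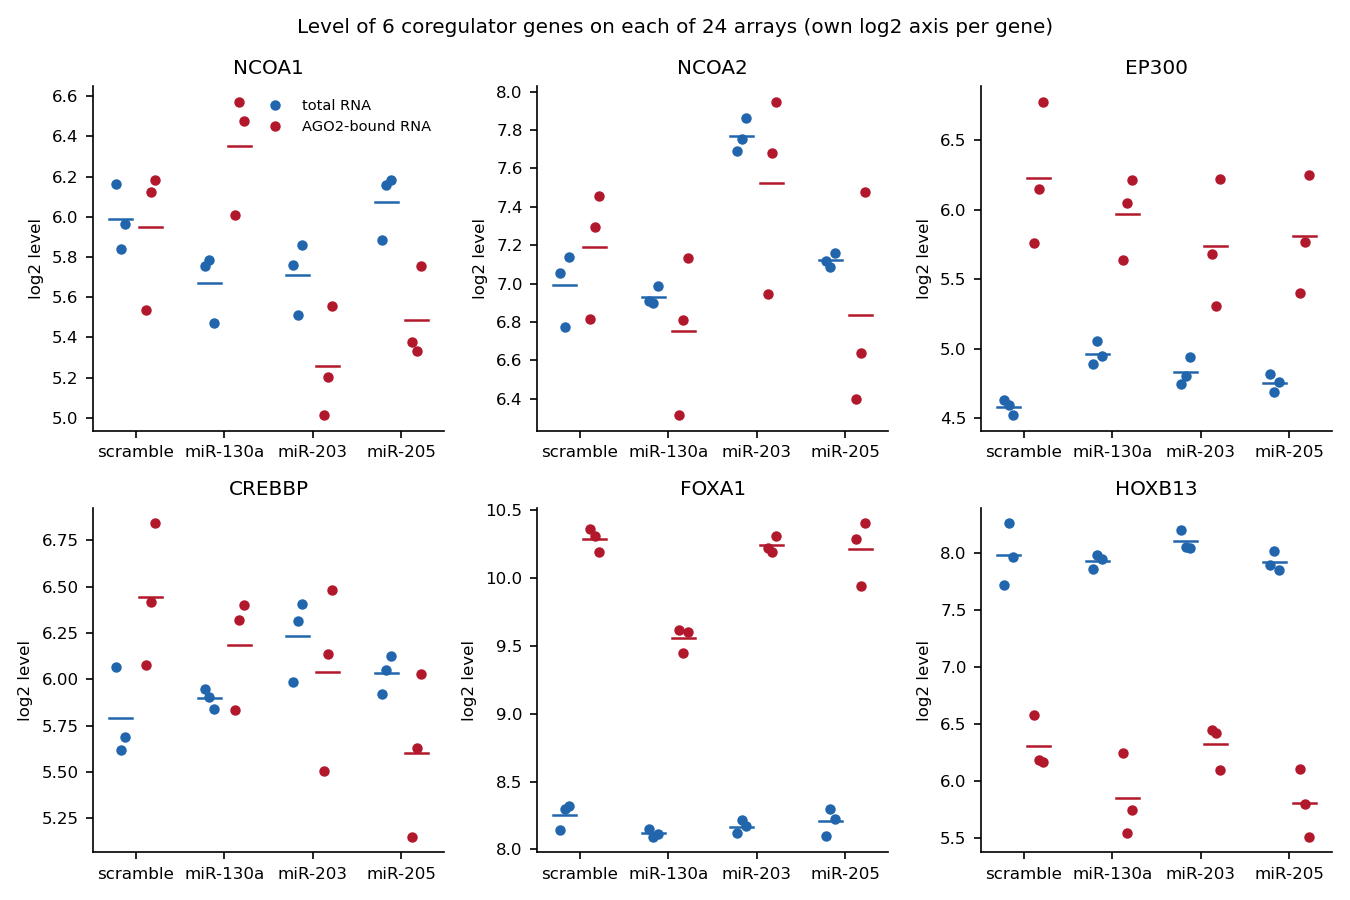
Log2 level (vertical axis, its own range for each gene) of 6 coregulator genes on each of 24 arrays by transfection, with total RNA in blue, AGO2-bound RNA in red, 1 point per array and a line at the mean of 3. By the main probe set of each gene, FOXA1 and EP300 sit higher in AGO2-bound RNA and HOXB13 sits lower in all 4 transfections. The other probe set of EP300, not drawn here, did not share its calls. For NCOA2 the ranges of AGO2-bound and total RNA overlap in each transfection.

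The factor FOXA1 (gene ID 3169, chr14:37589552-37595249) showed the widest separation between AGO2-bound and total RNA in the upward direction among the 6 genes. In AGO2-bound RNA its level was 10.37, 10.31 and 10.19 after scramble, 10.22, 10.20 and 10.31 after miR-203 and 10.29, 9.94 and 10.41 after miR-205. After miR-130a it was 9.61, 9.45 and 9.60. These 3 arrays lie below the other 9, and the ranges of the other 3 groups overlap. Against scramble alone, 27.3% of all genes tested were lower without overlap after miR-130a. In total RNA the 12 arrays lay between 8.09 and 8.32, and the 4 groups follow each other in the order scramble, miR-205, miR-203 and miR-130a with ranges that overlap between neighbours. All 12 AGO2-bound arrays were above all 12 total RNA arrays. FOXA1 was higher in AGO2-bound than in total RNA by 2.03 ± 0.11 (log2 difference ± SE, 3 arrays per group, 4.10-fold) after scramble, 1.44 ± 0.11 after miR-130a, 2.08 ± 0.11 with miR-203 and 2.01 ± 0.11 after miR-205. The largest of the 4 adjusted p-values was 6.6e-11 (limma, Benjamini-Hochberg over the genes tested).

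After miR-130a, FOXA1 in AGO2-bound RNA fell by 0.73 ± 0.14 against scramble (1.66-fold lower, adjusted p = 0.00088). Total RNA gave a difference of -0.14 ± 0.08 for the same transfection (adjusted p = 0.23). The change in AGO2-bound RNA exceeded that in total RNA by -0.60 ± 0.16 (adjusted p = 0.0056). After miR-203 and miR-205 the AGO2-bound level differed from scramble by -0.05 ± 0.14 and -0.08 ± 0.14, with adjusted p-values of 0.80 and 0.70. The fall after miR-130a kept its direction and its call with each array left out and under every alternative setting, with values between -0.78 and -0.68. FOXA1 has 1 probe set, so the settings that change the probe set could not move this value. The gap between the ACTB 3′ and 5′ probe sets was also smaller in AGO2-bound RNA after miR-130a than after scramble, and its part in this difference was not tested.

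HOXB13 (gene ID 10481, chr17:48724763-48728750), a homeobox factor of the prostate lineage that also has 1 probe set, ran the other way from FOXA1. Its level in total RNA was 7.72, 8.26 and 7.97 after scramble, and the 9 arrays of the microRNAs lay between 7.85 and 8.20. In AGO2-bound RNA it was 6.58, 6.18 and 6.16 after scramble and 6.44, 6.42 and 6.09 after miR-203. It was 6.25, 5.54 and 5.74 after miR-130a and 6.10, 5.79 and 5.51 after miR-205. Every AGO2-bound array was thus below every total RNA array, and the 4 groups within each kind of RNA overlapped with their neighbours in the order of levels. HOXB13 was lower in AGO2-bound than in total RNA, with differences of -1.67 ± 0.17 after scramble (3.19-fold lower), -2.09 ± 0.17 after miR-130a, -1.78 ± 0.17 with miR-203 and -2.12 ± 0.17 after miR-205. The largest of these adjusted p-values was 6.4e-09.

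Against scramble, HOXB13 in AGO2-bound RNA differed by -0.46 ± 0.21 after miR-130a (adjusted p = 0.093), by -0.51 ± 0.21 after miR-205 (adjusted p = 0.061) and by 0.01 ± 0.21 after miR-203 (adjusted p = 0.97). None of these passed the test. The miR-205 arrays, at most 6.10, lay below the scramble arrays, at least 6.16, as was so for 27.9% of all genes tested. Replicate 1 was the highest AGO2-bound array of its group for HOXB13 in 4 of 4 transfections. Without miR-130a replicate 1 the difference was -0.67 (adjusted p = 0.023), and without miR-205 replicate 1 it was -0.66 (adjusted p = 0.028). With the replicate number as a block the miR-130a difference stayed at -0.46 ± 0.14 and passed (adjusted p = 0.011). For miR-130a with scramble the data bear this block out, though the replicate 2 arrays correlated at only 0.11. The miR-205 difference passed with the block too (-0.51 ± 0.14, adjusted p = 0.0057), although the replicate 2 arrays of miR-205 and scramble did not deviate together. The miR-130a difference also passed with array weights (-0.50, adjusted p = 0.033). In 1 fit over all 24 arrays it passed too (adjusted p = 0.032), as did the miR-205 difference (adjusted p = 0.018). That fit pools the spread of both kinds of RNA, and its SE was 0.17 beside 0.21. In total RNA the differences from scramble were -0.05 ± 0.12, 0.12 ± 0.12 and -0.06 ± 0.12 after miR-130a, miR-203 and miR-205, and none passed. The AGO2 change beyond the total RNA change was -0.41 ± 0.25, -0.11 ± 0.25 and -0.45 ± 0.25 in the same order, also none past the test, though the first passed without AGO2-bound miR-130a replicate 1 (-0.62, adjusted p = 0.046).

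The coactivator NCOA1 (gene ID 8648, chr2:24491254-24770702) has 4 probe sets, and its main one, 209106_at, ordered the transfections differently in the 2 kinds of RNA. In AGO2-bound RNA its level was 5.53, 6.12 and 6.18 after scramble, 6.01, 6.57 and 6.48 after miR-130a, 5.01, 5.20 and 5.56 with miR-203, and 5.38, 5.33 and 5.75 after miR-205. In total RNA it was 6.16, 5.84 and 5.97, then 5.76, 5.79 and 5.47, then 5.76, 5.51 and 5.86, and then 5.89, 6.16 and 6.18 in the same order of transfections. AGO2-bound RNA of miR-130a was thus the highest of the 8 groups and that of miR-203 the lowest, and all neighbours in the order of means overlapped.

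Against scramble, NCOA1 in AGO2-bound RNA fell by 0.69 ± 0.21 after miR-203 (adjusted p = 0.016), with ranges that overlapped by 1 array. The call was lost without miR-203 replicate 1 (-0.57, adjusted p = 0.066), without scramble replicate 2 (-0.60, adjusted p = 0.065) and without scramble replicate 3 (-0.57, adjusted p = 0.064). The other 3 probe sets gave 0.12, -0.14 and 0.46 for this comparison, none past the test, so the fall belongs to 1 of 4 probe sets, and with no signal filter its adjusted p was 0.058. After miR-130a the AGO2-bound difference was 0.41 ± 0.21 (adjusted p = 0.16; with the replicate block the SE was 0.14 and the adjusted p = 0.025). After miR-205 it was -0.46 ± 0.21 (adjusted p = 0.099, and 0.011 with the replicate block), and without scramble replicate 1 -0.67 (adjusted p = 0.025). In total RNA the 3 differences were -0.32 ± 0.13, -0.28 ± 0.13 and 0.09 ± 0.13 after miR-130a, miR-203 and miR-205, and none passed. The first passed when the arrays were centred on their median (-0.37, adjusted p = 0.033) or quantile normalized within each kind of RNA (-0.38, adjusted p = 0.034).

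The main NCOA1 probe set was higher in AGO2-bound than in total RNA after miR-130a by 0.68 ± 0.18 (adjusted p = 0.0020) and lower after miR-203 by -0.45 ± 0.18 (adjusted p = 0.031) and after miR-205 by -0.59 ± 0.18 (adjusted p = 0.0062). After scramble the difference was -0.04 ± 0.18. The other 3 probe sets gave values below 0 in every transfection, from -0.02 to -1.43, with calls in 10 of 12 tests. After miR-205 all 4 probe sets were called lower, at -0.59, -1.13, -1.11 and -1.43, and their mean gave -1.07. After miR-130a the other 3 gave -0.72, -0.02 and -0.55, opposite to the main one. The miR-203 call was lost without AGO2-bound replicate 1 (-0.33, adjusted p = 0.15) or 2 (-0.42, adjusted p = 0.077), and without total RNA replicate 1 (-0.43, adjusted p = 0.076) or 3 (-0.38, adjusted p = 0.11), and with no signal filter (adjusted p = 0.077).

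NCOA2 (gene ID 10499, chromosome 8) had the largest difference from scramble in total RNA among the 6 genes. Its main probe set, 212867_at, read 7.69, 7.76 and 7.86 in total RNA after miR-203, against 7.06, 6.78 and 7.14 after scramble, 6.91, 6.90 and 6.99 after miR-130a and 7.12, 7.08 and 7.16 after miR-205. All 3 arrays of miR-203 were above the other 9 arrays of total RNA. NCOA2 was higher after miR-203 than after scramble by 0.78 ± 0.10 (1.72-fold, adjusted p = 6.7e-05), and the call was kept with each array left out; the mean of its probe sets gave 0.40. Its probe set 205732_s_at gave 0.53 ± 0.17 (adjusted p = 0.028), from levels between 3.85 and 4.42 against 3.29 to 3.93. The miR-130a and miR-205 differences in total RNA were -0.06 ± 0.10 and 0.13 ± 0.10, with adjusted p-values of 0.67 and 0.37.

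In AGO2-bound RNA, NCOA2 read 6.81, 7.30 and 7.46 after scramble, 6.31, 6.81 and 7.13 after miR-130a, 6.94, 7.68 and 7.95 with miR-203 and 6.40, 6.64 and 7.48 after miR-205. The groups overlap, and the spread within each (SD 0.33 to 0.57) is wider than in total RNA (SD 0.04 to 0.19). Against scramble the differences were -0.44 ± 0.31 after miR-130a, 0.33 ± 0.31 with miR-203 and -0.35 ± 0.31 after miR-205, and none passed, with adjusted p-values of 0.30, 0.39 and 0.39. With the replicate block all 3 passed, with adjusted p-values of 0.017, 0.049 and 0.044 in that order. From levels near the floor, the probe set 205732_s_at was called higher than scramble after miR-203 (0.30 ± 0.11, adjusted p = 0.036). It gave 0.02 after miR-130a and -0.03 after miR-205, neither called. Against total RNA, the main probe set differed by 0.20 ± 0.24, -0.18 ± 0.24, -0.25 ± 0.24 and -0.28 ± 0.24 after scramble, miR-130a, miR-203 and miR-205, and none passed. The last passed without AGO2-bound miR-205 replicate 3 (-0.60, adjusted p = 0.025). The probe set 205732_s_at was called lower in AGO2-bound RNA in all 4 (-1.29, -1.27, -1.52 and -1.44), and the mean of its probe sets was as well (-0.38, -0.46, -0.62 and -0.63, largest adjusted p = 0.0019). By 205732_s_at the AGO2-bound arrays of miR-205 all lay at the floor, so that -1.44 is a bound, and 2 of 3 arrays lay within 0.05 of it after scramble and after miR-130a. After miR-203 the AGO2-bound arrays read 2.66, 2.68 and 2.69, above the floor of 2.35. The remaining 2 probe sets of NCOA2 lay below the filter but entered the mean of its probe sets.

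**Figure D2:**
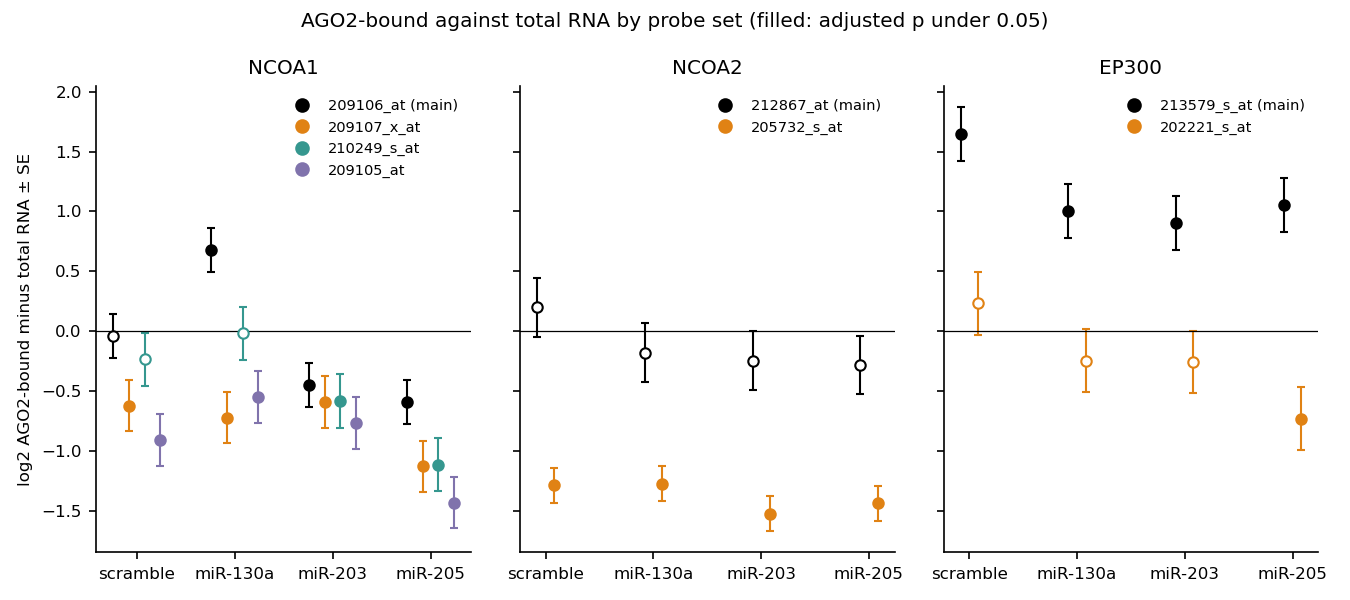
Log2 difference of AGO2-bound minus total RNA (vertical axis, ± SE, 3 arrays per group) by transfection for each tested probe set of NCOA1, NCOA2 and EP300, filled where the adjusted p was under 0.05. The 2 probe sets of EP300 lie apart in every transfection, at 1.65 and 0.23 after scramble and at 1.05 and -0.73 after miR-205.

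EP300 (gene ID 2033, chr22:41092592-41180077) has 2 probe sets that did not give 1 answer. The main one, 213579_s_at, read 5.76, 6.15 and 6.78 in AGO2-bound RNA after scramble, 5.64, 6.05 and 6.21 after miR-130a, 5.68, 5.31 and 6.22 with miR-203 and 5.40, 5.77 and 6.25 after miR-205. In total RNA it read 4.63, 4.60 and 4.52, then 4.89, 5.06 and 4.95, then 4.75, 4.80 and 4.94, and then 4.82, 4.69 and 4.76. The 12 AGO2-bound arrays were all above the 12 total RNA arrays. By this probe set EP300 was higher in AGO2-bound RNA by 1.65 ± 0.22 after scramble, 1.00 ± 0.22 after miR-130a, 0.91 ± 0.22 with miR-203 and 1.05 ± 0.22 after miR-205, with a largest adjusted p of 0.00094. The probe set 202221_s_at gave 0.23 ± 0.26, -0.24 ± 0.26, -0.26 ± 0.26 and -0.73 ± 0.26, of which the last was called lower (adjusted p = 0.015). The mean of both probe sets kept the call after scramble only (0.94, adjusted p = 0.0014); after miR-130a, miR-203 and miR-205 it gave 0.38, 0.32 and 0.16, with adjusted p-values of 0.16, 0.23 and 0.56.

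The probe sets also parted in total RNA. After miR-130a the main probe set of EP300 was higher than after scramble by 0.38 ± 0.08 (adjusted p = 0.0049), and 202221_s_at was lower by -0.57 ± 0.12 (adjusted p = 0.0055), with levels of 4.70 to 5.00 against 5.26 to 5.61. For both probe sets the 2 groups did not overlap, so 1 gene was called in opposite directions. Of all genes tested, 24.5% were higher and 21.7% lower without overlap in this comparison. In 1 fit over all 24 arrays the rise of the main probe set was not called (adjusted p = 0.26), nor was that after miR-203 (adjusted p = 0.45). That fit pools the spread of both kinds of RNA, and its SE was 0.22 beside 0.08. After miR-203 the main probe set was higher by 0.25 ± 0.08 (adjusted p = 0.033) and 202221_s_at differed by 0.03 ± 0.12 (adjusted p = 0.85). That call of the main probe set was lost without miR-203 replicate 2 (0.26, adjusted p = 0.059) or 3 (0.19, adjusted p = 0.11) and without scramble replicate 2 (0.25, adjusted p = 0.058) or 3 (0.21, adjusted p = 0.10). After miR-205 they gave 0.17 ± 0.08 and 0.25 ± 0.12, neither past the test.

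In AGO2-bound RNA the main probe set of EP300 differed from scramble by -0.26 ± 0.29, -0.49 ± 0.29 and -0.42 ± 0.29 after miR-130a, miR-203 and miR-205, and none passed. With the replicate block the miR-203 and miR-205 differences passed (SE 0.16, adjusted p = 0.014 and 0.036). The probe set 202221_s_at gave -1.04 ± 0.33 (adjusted p = 0.026), -0.46 ± 0.33 and -0.71 ± 0.33 in the same order. After miR-130a its arrays, at 4.20, 4.40 and 5.26, lay below those after scramble, at 5.45, 5.48 and 6.06. Of all genes tested, 27.3% were lower without overlap there. Beyond the total RNA change, the main probe set differed by -0.64 ± 0.32, -0.74 ± 0.32 and -0.59 ± 0.32 (adjusted p = 0.12, 0.058 and 0.14). The probe set 202221_s_at gave -0.48, -0.49 and -0.96, each ± 0.37, and the last was called lower (adjusted p = 0.041). By the main probe set all 3 passed without AGO2-bound scramble replicate 1, at -0.88, -0.97 and -0.83 (adjusted p = 0.032, 0.013 and 0.036). The second also passed without AGO2-bound miR-203 replicate 3 (-0.98, adjusted p = 0.011), and the last without AGO2-bound miR-205 replicate 3 (-0.82, adjusted p = 0.039).

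CREBBP (gene ID 1387, chr16:3725054-3880713), the paralogue of EP300, was lower in the AGO2-bound RNA of miR-205 than in that of scramble. Its main probe set, 202160_at, read 5.15, 5.63 and 6.03 after miR-205 against 6.08, 6.42 and 6.84 after scramble. The highest array of miR-205 lay just under the lowest of scramble, and 27.9% of all genes tested were lower without overlap in this comparison. The fall was 0.84 ± 0.28 (1.79-fold lower, adjusted p = 0.025, and with the replicate block SE 0.12 and adjusted p = 3.8e-05). It was not called without miR-205 replicate 1 (-0.62, adjusted p = 0.11) or 2 (-0.85, adjusted p = 0.063), or without scramble replicate 2 (-0.86, adjusted p = 0.060) or 3 (-0.64, adjusted p = 0.11), or with no signal filter (adjusted p = 0.12), and the mean of its probe sets gave -0.46. After miR-130a the AGO2-bound arrays read 5.84, 6.32 and 6.40, and after miR-203 5.50, 6.13 and 6.48. These differed from scramble by -0.26 ± 0.28 (adjusted p = 0.50) and -0.40 ± 0.28 (adjusted p = 0.24; with the replicate block, SE 0.12 and adjusted p = 0.0098).

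In total RNA, CREBBP read 6.06, 5.62 and 5.69 after scramble, 5.95, 5.91 and 5.84 after miR-130a, 5.98, 6.31 and 6.41 with miR-203 and 5.92, 6.05 and 6.12 after miR-205. After miR-203 it was higher than after scramble by 0.44 ± 0.13 (adjusted p = 0.018), with overlapping ranges. That call was lost without miR-203 replicate 2 (0.40, adjusted p = 0.059) or 3 (0.36, adjusted p = 0.071). It was also lost without scramble replicate 2 (0.36, adjusted p = 0.070) or 3 (0.39, adjusted p = 0.064). In 1 fit over all 24 arrays, which pools the spread of both kinds of RNA, the call was lost too (SE 0.23, adjusted p = 0.16). The mean of the probe sets of CREBBP gave 0.27. The miR-130a and miR-205 differences were 0.11 ± 0.13 and 0.24 ± 0.13 (adjusted p = 0.57 and 0.21), and the latter passed without scramble replicate 1 (0.38, adjusted p = 0.046). The change of CREBBP in AGO2-bound RNA went beyond that in total RNA by -1.08 ± 0.32 after miR-205 (adjusted p = 0.0092). This call was kept with each of the 12 arrays concerned left out and under every alternative setting. The mean of its 2 probe sets, of which 1 lay below the filter, gave -0.58. After miR-203 the change beyond total RNA was -0.85 ± 0.32 (adjusted p = 0.034), and after miR-130a it was -0.37 ± 0.32 (adjusted p = 0.43). The miR-203 call was lost when any of 7 of its 12 arrays was left out: AGO2-bound miR-203 replicate 1 (-0.58), AGO2-bound scramble replicates 2 (-0.86) and 3 (-0.65), total RNA of miR-203 replicates 2 (-0.81) and 3 (-0.76), and total RNA of scramble replicates 2 (-0.76) and 3 (-0.80). The adjusted p-values then ran from 0.051 to 0.13, and it was 0.10 with no signal filter; the mean of its probe sets gave -0.50.

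Against total RNA, CREBBP in AGO2-bound RNA was higher after scramble by 0.65 ± 0.23 (adjusted p = 0.013). This call was lost without AGO2-bound scramble replicate 3 (0.46, adjusted p = 0.10) or total RNA scramble replicate 2 (0.57, adjusted p = 0.056), and the mean of its probe sets gave 0.37. The differences after the microRNAs were 0.29 ± 0.23, -0.19 ± 0.23 and -0.43 ± 0.23 for miR-130a, miR-203 and miR-205, and none passed. The last passed without AGO2-bound miR-205 replicate 3 (-0.64, adjusted p = 0.021) and with arrays centred on their median (-0.60, adjusted p = 0.020). Its other probe set, 211808_s_at, lay below the filter and within 0.05 of its own lowest value on 21 of 24 arrays. The mean of the probe sets of CREBBP includes it, which shrinks the differences of the main probe set.

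**Figure D3:**
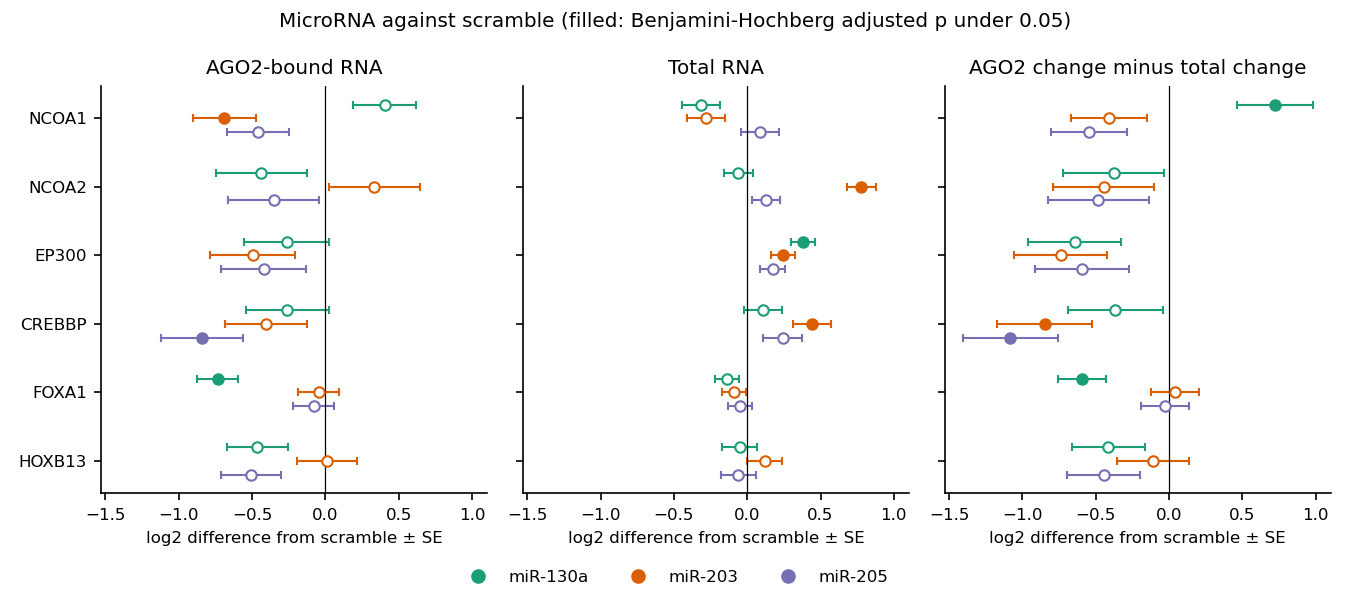
Log2 difference from scramble (horizontal axis, ± SE, 3 arrays per group) of 6 coregulator genes after each microRNA in AGO2-bound RNA, in total RNA and as the AGO2 change minus the total RNA change, filled where the adjusted p was under 0.05. FOXA1 after miR-130a (-0.73), NCOA1 with miR-203 (-0.69) and CREBBP after miR-205 (-0.84) are filled for AGO2-bound RNA, and in total RNA the largest difference is NCOA2 after miR-203 (0.78).

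Counted over the 6 genes, 1 was called in AGO2-bound RNA after each microRNA, each time a fall. Among all 6782 genes tested, 38.5% were called in either direction for miR-130a, 51.4% for miR-203 and 44% for miR-205, so 1 of 6 is no more than the background. With the replicate block 4 of the 6 were called after miR-130a, where the share of all genes called was 48.9%, and 4 with miR-203, where it was 61.5%. These blocked calls include 2 rises, NCOA1 after miR-130a (0.41) and NCOA2 after miR-203 (0.33). In total RNA 1 gene was called after miR-130a, 3 with miR-203 and 0 after miR-205, all of them rises, against a background of 29.3%, 39.6% and 23.5% of all genes. For total RNA after miR-130a, 54.5% of all calls were rises, and 41.8% with arrays centred on their median. In total RNA after miR-205, where limma called 0 of the 6, 0 had an unadjusted p under 0.05; the smallest was 0.058 (EP300). The median difference of the 6 genes in AGO2-bound RNA was -0.35, -0.23 and -0.44 after miR-130a, miR-203 and miR-205, beside -0.05, -0.09 and -0.06 over all genes.

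In AGO2-bound against total RNA, 4 of the 6 genes were called in each transfection. The background was 72.9% of all genes for scramble, 71.6% for miR-130a, 71.9% for miR-203 and 72.7% for miR-205, so 4 of 6 is close to it. After scramble, 36.5% of all genes were higher and 40.1% lower in AGO2-bound RNA without overlap of the 2 groups. Centring each array on its median moved the median difference of all genes from -0.05 to -0.18 after scramble and from -0.01 to -0.18 after miR-205. The differences of FOXA1 and HOXB13 kept direction and call under each scaling. For the AGO2 change beyond the total RNA change, 2 genes were called after miR-130a (NCOA1 higher, FOXA1 lower) and 1 each after miR-203 and miR-205 (CREBBP, lower), beside 34.6%, 49.1% and 42.8% of all genes. The NCOA1 value of 0.72 ± 0.26 after miR-130a (adjusted p = 0.033) was not shared by its other probe sets, which gave -0.10, 0.22 and 0.36, nor kept with no signal filter (adjusted p = 0.085). It was lost when any of 6 of the 12 arrays was left out: AGO2-bound miR-130a replicates 2 (0.61) and 3 (0.66), total RNA of miR-130a replicate 3 (0.62), AGO2-bound scramble replicate 1 (0.52), and total RNA of scramble replicates 1 (0.64) and 3 (0.73). For NCOA1 after miR-203 and miR-205 the values were -0.41 ± 0.26 and -0.55 ± 0.26, and without AGO2-bound scramble replicate 1 both passed (-0.62 and -0.75, adjusted p = 0.045 and 0.018). The miR-205 value of NCOA1 also passed without AGO2-bound miR-205 replicate 3 (-0.68, adjusted p = 0.043). That of NCOA2 did as well (-0.80, adjusted p = 0.042, against -0.48 ± 0.34 with all arrays). By 210249_s_at the miR-205 value of NCOA1 was called lower (-0.88 ± 0.32, adjusted p = 0.029). By 209107_x_at and 209105_at it was -0.51 and -0.52, neither called.

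The arrays of AGO2-bound RNA carried a pattern tied to their replicate number. Replicate 3 was the highest of its group in 4 of 4 transfections for NCOA2, EP300 and CREBBP and in 3 of 4 for NCOA1, and replicate 1 was the lowest in 4 of 4 for NCOA2 and CREBBP. On average replicate 3 stood above its group mean by 0.43 for NCOA2, 0.43 for EP300 and 0.37 for CREBBP, and FOXA1 by 0.05. HOXB13 had its highest array at replicate 1 in 4 of 4, by 0.27 on average. In total RNA NCOA2 was also highest at replicate 3 in 4 of 4, by 0.08 on average, and the mean deviation by number was at most 0.09 in size for these genes. The mean of 42 spiked control probe sets in AGO2-bound RNA was 6.57 to 7.08 on the arrays numbered 1 and 7.60 to 8.35 on those numbered 3, highest at number 3 in every group, against 6.02 to 6.38 over all total RNA arrays. The part of this pattern in the levels of the genes was not tested; the block on the replicate number narrows the SE of NCOA2 in AGO2-bound RNA from 0.31 to 0.14 without moving its differences.

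**Figure D4:**
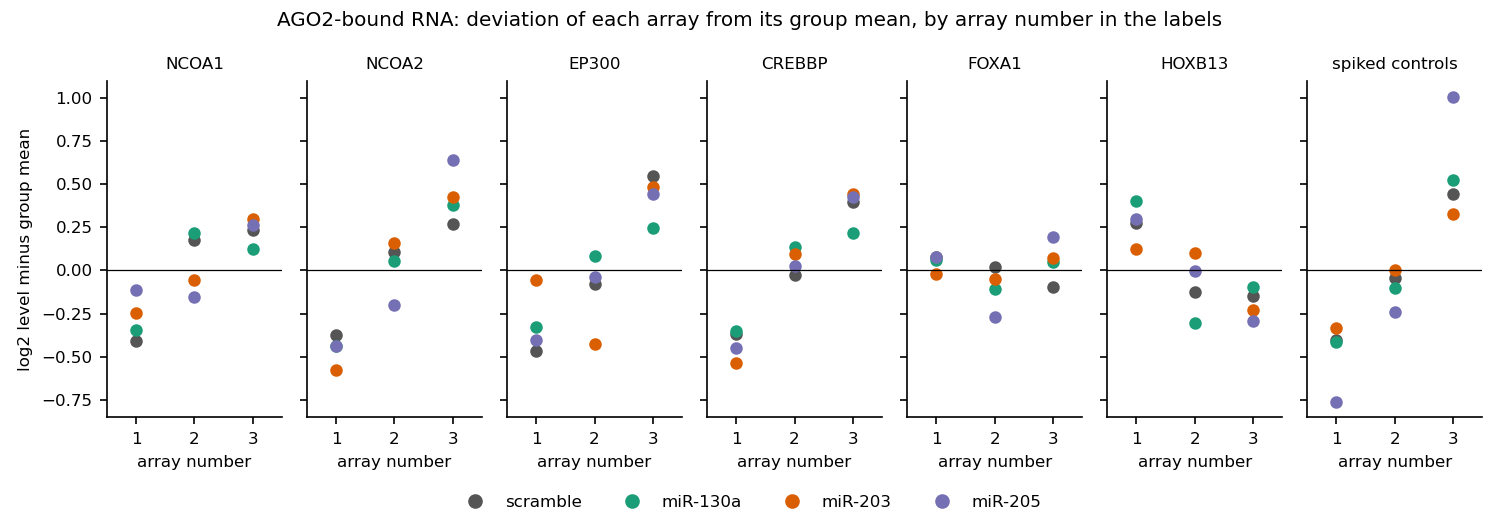
Log2 level minus the mean of its group of 3 (vertical axis) for AGO2-bound RNA by replicate number in the labels (horizontal axis), for 6 coregulator genes and the mean of 42 spiked control probe sets, 1 point per array and 1 colour per transfection. NCOA2, EP300 and CREBBP sit highest at number 3, as the spiked controls do, and HOXB13 sits highest at number 1.

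Over the 24 arrays, the genes whose log2 levels followed each member most closely were named by Pearson correlation, as a description, since the points share the kind of RNA and the transfections. FOXA1 was followed by DET1 (r = 0.98) and TOB2 (0.98), and HOXB13 by ENO1, the glycolytic enolase (0.99), and BSG, a transmembrane glycoprotein (0.99). Within the 12 AGO2-bound arrays r was 0.88 and 0.70 for FOXA1, and 0.87 and 0.80 for HOXB13. Within the 12 total RNA arrays it was 0.61 and 0.43, and 0.79 and 0.78. NCOA1 was followed by COPB1, a coatomer subunit (0.88), and AP2B1, a clathrin adaptor subunit (0.85), NCOA2 by ATG2B (0.84) and SLC39A9 (0.83). EP300 was followed by ZSCAN9 (0.95) and DOCK4 (0.95), and CREBBP by the adhesion molecule ALCAM (0.78) and the proteoglycan SDC2 (0.73).

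Around these genes, 125 others of the receptor pathway were listed in groups by function, and 102 of them were tested. A further list of 23 androgen-responsive targets was not added to this set. Of the 102, 39.2% were called in AGO2-bound RNA after miR-130a and 42.2% in total RNA after miR-203, close to the 38.5% and 39.6% of all genes. The share was further above that of all genes in AGO2-bound RNA after miR-205 (52.9% beside 44%), for the excess over total RNA after miR-205 (52.9% beside 42.8%) and in AGO2-bound against total RNA after miR-205 (79.4% beside 72.7%). In total RNA after miR-130a, 27 of the 102 were higher and 4 lower, beside 15.9% and 13.3% of all genes. The balance of rises and falls over all genes in this comparison moved when arrays were centred on their median. The counts of the 102 were not redone with that scaling. Among the collaborating transcription factors, the class of FOXA1 and HOXB13, 10 were tested, and AGO2-bound RNA held 5 higher and 3 lower than total RNA after scramble and 8 higher and 1 lower after miR-205, with medians of 0.75 and 1.37. Of all genes 35.1% were higher and 37.8% lower after scramble, and 36.6% and 36.1% after miR-205, with medians of -0.05 and -0.01. MYC was higher by 4.37 ± 0.15 and GATA2, a factor that binds with the receptor, by 1.63 ± 0.12 after scramble (both with adjusted p of 1.8e-11 or less). The chaperones that hold the receptor in a state able to bind hormone went the other way. Of 13 tested, 12 were lower and 0 higher in AGO2-bound than in total RNA after scramble (median -1.36), 11 lower and 2 higher both after miR-130a and with miR-203, and 9 lower and 4 higher after miR-205 (median -0.56). Of all genes 33.3% were higher and 38.3% lower after miR-130a, and 34.7% and 37.2% after miR-203. The cochaperone STIP1 was lower by -4.25 ± 0.18 and the immunophilin FKBP4 by -2.59 ± 0.18 after scramble.

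Among corepressor complex genes, 7 of 14 were higher and 1 lower in total RNA after miR-130a, with CORO2A at 1.12 ± 0.15, the deacetylase HDAC3 at 0.73 ± 0.10 and TBL1XR1 lower at -1.26 ± 0.17, beside 15.9% higher and 13.3% lower among all genes. After miR-203, 1 was higher and 4 lower, and after miR-205, 2 higher and 1 lower, with the methyltransferase EZH2 lower in both (-0.997 ± 0.14 and -0.89 ± 0.14). Of the 16 androgen-responsive targets tested, 11 were lower and 1 higher in total RNA after miR-203 (median -0.67), and 9 were higher and 1 lower after miR-205 (median 0.42). Of all genes 19.8% were higher and 19.8% lower in total RNA after miR-203, and 10.1% and 13.3% after miR-205, with medians of 0.01 and -0.01. In the SWI/SNF remodelling complex, 12 subunits tested, total RNA held 1 higher and 5 lower after miR-203, with SMARCE1 at -0.56 ± 0.10. The comparisons with scramble share the scramble arrays, and those of miR-130a and miR-203 also cross the normalization runs. The counts of these lists, that of corepressor genes after miR-130a among them, were not redone with arrays centred on their median.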

How the data were processed

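The deposited table holds log2 expression levels per probe set, 22277 of them on 24 arrays, which the authors had summarized before deposit. The tools R 2.9.0, GCRMA and RMA are listed in the submitters' processing notes without their roles. The platform annotation gave 1 gene symbol for 19070 probe sets and several for 1043; 2102 had none here and 62 were controls. A gene's main value came from its probe set of highest mean, and genes under the median of all probe set means (2.85) were left out. The members and the gene lists were chosen with earlier results of these data known; named genes are the members and, per list, called genes with the smallest p.

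Differences were tested with limma 3.58.1 in R 4.3.3 (lmFit, eBayes), with Benjamini-Hochberg adjustment over 6782 genes and a threshold of 0.05. AGO2-bound and total RNA arrays, 12 each, were fitted apart against scramble; all 24 entered the fits that compare both kinds of RNA. The fit was also tested on simulated data. Alternatives changed the filter, probe set, scaling, spread prior, weights, threshold, fitted arrays, replicate block and each array in turn. In AGO2-bound RNA, same-numbered arrays of scramble and miR-130a deviated together (correlations 0.11 to 0.52), and so did those of scramble and miR-203 (0.16 to 0.58). A pair was marked by a correlation over 0.1 at each number, and number 2 gave the lowest values, 0.11 and 0.16. By this rule, applied to the same data as the tests, the replicate numbers pair these arrays. Arrays have no sequencing depth; 3 per group limits the precision.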

Additional observations from a re-analysis of the deposited data

Results flagged for a closer look

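The AGO2-bound and total RNA effects of the same microRNA differed in the fit's own test of the difference for 4 results. NCOA1 after miR-130a differed by 0.72 ± 0.26 (adjusted p = 0.033), FOXA1 after miR-130a by -0.60 ± 0.16 (adjusted p = 0.0056), CREBBP after miR-203 by -0.85 ± 0.32 (adjusted p = 0.034) and CREBBP after miR-205 by -1.08 ± 0.32 (adjusted p = 0.0092). The FOXA1 and the miR-205 results kept their calls under every alternative and with each array left out, and neither gene had another tested probe set to check.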

How the results depend on the processing

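Of the 78 differences of the 6 genes, 27 were called; 14 of these kept direction and call with each array left out and under every alternative other than another single probe set, and 13 lost the call under at least 1. Counting the other tested probe sets too, 13 kept it: EP300 in AGO2-bound against total RNA after scramble was not called by 202221_s_at (0.23, adjusted p = 0.43). FOXA1 and HOXB13 have 1 probe set each and CREBBP has 1 above the filter, so this check could not change their calls. Among the 13 it bore only on NCOA2 in total RNA after miR-203 and NCOA1 in AGO2-bound against total RNA after miR-205. With no signal filter, the count of called genes became 0 in AGO2-bound RNA after miR-203 and after miR-205, and 1 and 0 for the AGO2 change beyond the total RNA change after miR-130a and miR-203. The mean of a gene's probe sets gave 0 in AGO2-bound RNA after miR-203, 0 in total RNA after miR-130a and 1 for the excess after miR-130a. Quantile normalization and centred arrays each gave 2 in total RNA after miR-130a. Array weights gave 2 in AGO2-bound RNA after miR-130a and after miR-205, and 2 and 3 for the excess after miR-203 and miR-205. At an adjusted p under 0.01 the counts were 0 in AGO2-bound RNA after miR-203 and miR-205, 1 in total RNA after miR-203, and 1 and 0 for the excess after miR-130a and miR-203. One fit over all 24 arrays shares 1 spread over both kinds of RNA. It gave 2 and 3 in AGO2-bound RNA after miR-130a and miR-205, and 0 and 1 in total RNA after miR-130a and miR-203. These counts, and those with 1 array left out below, stand without the share of all genes called under the same setting. A shift in them was thus not compared here with a shift over all genes.

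With the replicate block the counts were 4, 4 and 5 in AGO2-bound RNA of miR-130a, of miR-203 and of miR-205, and 3 and 5 for the excess after miR-203 and miR-205; of all genes 48.9%, 61.5% and 53.2%, and 54.9% and 49.7%, were then called. In total RNA and across kinds of RNA the arrays share only a number, and the block was set within each kind. The block lost EP300 in total RNA after miR-203 (adjusted p = 0.052). It gained NCOA2 (adjusted p = 0.037) and CREBBP (adjusted p = 0.0056), both lower, in AGO2-bound against total RNA after miR-205. For the excess after miR-130a it gained EP300, lower (adjusted p = 0.0099). The share of all genes called with the block is not given for these. For miR-205 with scramble in AGO2-bound RNA, the deviations of same-numbered arrays correlated at 0.52 for number 1 and 0.31 for number 3. Number 2 gave -0.04, so the pairing was borne out only in part.

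With 1 array left out, the counts in AGO2-bound RNA ran from 1 to 2, 0 to 1 and 0 to 2 for the 3 microRNAs in numerical order. In total RNA they were 1 throughout, 1 to 3 and 0 to 1. For AGO2-bound against total RNA they were 3 to 4 after scramble, 4 throughout after miR-130a, 3 to 4 after miR-203 and 4 to 6 after miR-205. For the excess they were 1 to 3, 0 to 3 and 1 to 4.

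Of the 27 called differences, 0 changed sign with 1 array left out or under an alternative other than the choice of probe set; of those not called, 15 changed sign with 1 array left out. The choice of probe set turned directions. With the mean of probe sets, EP300 in total RNA after miR-130a was -0.093, NCOA2 in AGO2-bound against total RNA after scramble -0.38 and NCOA1 after miR-130a -0.15. By 202221_s_at, EP300 in total RNA after miR-130a was -0.57, and in AGO2-bound against total RNA -0.24, -0.26 and -0.73 after miR-130a, miR-203 and miR-205. By 205732_s_at, NCOA2 after scramble was -1.29. In AGO2-bound against total RNA after miR-130a, NCOA1 was -0.72 by 209107_x_at, -0.018 by 210249_s_at and -0.55 by 209105_at. In AGO2-bound RNA after miR-203 NCOA1 was 0.12 by 209107_x_at and 0.46 by 209105_at, and its excess after miR-130a was -0.10 by 209107_x_at. The cause was not tested. The 3 arrays per group limit what these tests can show; levels near the floor of 2.34 have compressed differences.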

Other observations

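MED1, the Mediator subunit that contacts nuclear receptors, was lower than scramble in AGO2-bound RNA after miR-130a (-1.19 ± 0.15), miR-203 (-1.30 ± 0.15) and miR-205 (-1.65 ± 0.15), with adjusted p-values of at most 2.4e-05. In total RNA it was higher after miR-203 (1.32 ± 0.15) and miR-205 (0.82 ± 0.15). The histone demethylase KDM4B was higher in total RNA after all 3 microRNAs, by 1.12 ± 0.12, 0.85 ± 0.12 and 1.11 ± 0.12, and KDM5B by 0.62 ± 0.14, 0.93 ± 0.14 and 0.96 ± 0.14. These comparisons share their scramble arrays. The value of MED1 in total RNA after miR-130a is not reported here. All genes named from the lists rest on their brightest probe set, and their other probe sets and left-out arrays were not checked.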
